A study of Ramazzottius varieornatus with 18 samples.

Results

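Juvenile 3d was compared with Juvenile 2d in the tardigrade Ramazzottius varieornatus, to describe how the transcriptome of young animals differed over a single day of juvenile life. The comparison took in the 6 libraries labelled with these days, 3 for each day, of the 18 whole-body libraries of Juvenile 2d to 7d. All animals were of the strain YOKOZUNA-1, kept untreated on agar plates and fed Chlorella vulgaris. The labels of the groups differed only in the day. A difference between the days in culture, preparation or sequencing cannot be told apart from one of age. RNA of whole animals was amplified as full-length cDNA by the SMARTer method and read as single-end reads. The libraries held between 2740260 and 4673295 estimated counts. The labels do not say whether the 3 libraries of a day came from separate cultures, so p-values measure only the spread between these libraries, which may be technical.

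Tardigrades belong to the Ecdysozoa, the animals that grow by shedding their cuticle. In arthropods, molting is timed by a pulse of the steroid hormone ecdysone. The hormone binds the ecdysone receptor EcR and its partner USP/RXR, which switch on a cascade of early and late transcription factors, and the names and roles of this pathway given here are known from Drosophila. R. varieornatus is also known for surviving desiccation, and its abundant heat-soluble proteins (CAHS in the cytosol, SAHS secreted and MAHS in mitochondria), a mitochondrial LEA protein (LEAM), the DNA-binding protein Dsup and its enzymes against oxidative stress are studied for this reason.

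Transcripts differed widely between the days. Of 9477 transcripts tested with edgeR's quasi-likelihood test, 4630 (48.9%) passed an adjusted p of 0.05, of which 2389 (25.2%) were higher and 2241 (23.6%) were lower at Juvenile 3d. Of those higher, 1099 differed by more than 1 and 222 by more than 3 on the log2 scale. Of those lower, 622 differed by more than 1 and 15 by more than 3. Large differences were therefore mostly towards higher levels at Juvenile 3d. The median level of the transcripts called lower was 42.1 TPM (a level corrected for transcript length and scaled to the library), against 11.8 TPM for those called higher and 11.1 TPM for those not called. Of the 100 transcripts most abundant at Juvenile 2d, 79 were called lower and 5 higher at Juvenile 3d, and 71 were still among the 100 most abundant. Of the 100 most abundant at Juvenile 3d, 31 were called higher and 50 lower, so the balance depended on the day that chose the set. In whole animals, a lower level from fewer cells of a type and from less RNA per cell cannot be told apart.

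The replicates of a day were closely alike. The correlation of log2(TPM + 1) over 10088 transcripts had a median of 0.973 over the 6 pairs of libraries within a day and of 0.881 over the 9 pairs between days, and the lowest pair within a day (0.957) was above the highest pair between days (0.917). These correlations are across transcripts, which are not independent replicates. The spread of this comparison was estimated from its own 6 libraries, with a biological coefficient of variation of 16.3%. With all 18 libraries in the fit, whose other days shared in the estimate of the spread, 2694 (25.8%) were called of 10436 tested, 1464 (14%) higher and 1230 (11.8%) lower. Of the higher and lower calls, 1399 and 1210 were also called from the 6 libraries. Below, a call that ended in the 18-library fit is given with its adjusted p there. Where levels are said not to overlap, this describes the 3 libraries of each day and adds no test to the call. The share of all transcripts without overlap is not given here.

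The number of calls in each direction depended on the scale. The fold changes below are of counts scaled by TMM (a scaling that takes most transcripts as unchanged), on which the median of all transcripts was 0.02 on the log2 scale. On log2(TPM + 1) that median was 0.23, and limma called 3332 higher and 1403 lower. With the medians of log2(TPM + 1) set equal, it called 1699 higher and 2811 lower. A pair of TPM levels thus reads somewhat higher at Juvenile 3d than the fold change beside it. The fold change also moved with the length of the coding sequence, from a median of −0.18 in the 1900 shortest transcripts to 0.36 in the 1895 longest. Of the shortest (309 to 741 bases), 17.5% were called higher and 32.7% lower. Of the longest (from 2277 bases), 40.4% were called higher and 10.1% lower. With this trend removed, 2297 were called higher and 2126 lower, and the part of length in the calls below was not tested beyond this fit.

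**Figure D1:**
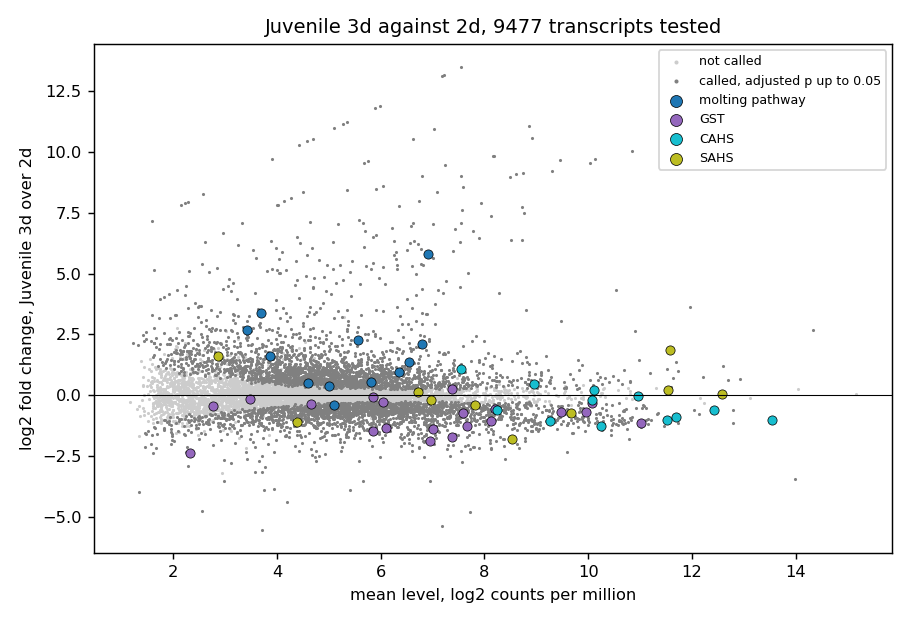
Log2 fold change of Juvenile 3d over 2d (TMM-scaled counts, vertical axis) against the mean level in log2 CPM (counts scaled to the library total, horizontal axis) for the 9477 transcripts tested, each a point. Members of the molting pathway, GST, CAHS and SAHS lists are coloured: the molting transcripts lie mostly above 0, with HR3 highest at 5.79, and the abundant CAHS and GST transcripts lie mostly below it.

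Molting pathway transcripts were higher at Juvenile 3d. Of the 12 transcripts that the study assigns to the pathway, 9 were called higher (75%, against 25.2% of all transcripts tested), 0 lower (also 0 at an unadjusted edgeR p under 0.05, and 0 by DESeq2) and 3 were not called, and the median log2 fold change was 1.48 against 0.02 over all transcripts tested. Leaving out each library in turn kept 8 of the 9 calls throughout, against 1726 of the 2389 higher calls over all transcripts tested. The 18-library fit kept 5 of the 9, against 1399 of the 2389. The summed level of the 12 was 104, 84.9 and 96.4 TPM in replicates 1, 2 and 3 of Juvenile 2d and 373, 490 and 218 TPM in those of Juvenile 3d. The days did not overlap, and the replicates of Juvenile 3d were further apart than those of Juvenile 2d.

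At the hormone itself, sad (g2400.t1), which in Drosophila encodes a cytochrome P450 of ecdysone synthesis, was called higher. Its levels were 16.4, 14.9 and 12.8 TPM at Juvenile 2d and 38.0, 59.6 and 36.7 TPM at Juvenile 3d, a log2 fold change of 1.35 (SE 0.20, edgeR adjusted p = 0.000755). Every Juvenile 3d library was above every Juvenile 2d library. CYP18A1 (g13718.t1), the P450 that inactivates ecdysone in Drosophila, had 13.6, 7.36 and 17.8 TPM at Juvenile 2d and 16, 9.92 and 8.64 TPM at Juvenile 3d. Its days overlapped, and the log2 fold change of −0.41 (SE 0.32) was within the spread of the replicates (edgeR adjusted p = 0.315).

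Both EcR transcripts, which encode the ecdysone receptor, were called higher. EcR g8354.t1 had 6.68, 6.21 and 6.29 TPM at Juvenile 2d and 66.3, 28.0 and 16.7 TPM at Juvenile 3d (log2 fold change 2.28, SE 0.46, edgeR adjusted p = 0.00416). EcR g12979.t1 had 18.7, 16.6 and 18 TPM and then 43.6, 35.7 and 44.0 TPM (0.97, SE 0.12, edgeR adjusted p = 0.000325). At Juvenile 2d g12979.t1 was the more abundant of the receptor transcripts in each library, whereas at Juvenile 3d their order differed between replicates. The 3 libraries of Juvenile 3d differed 3.96-fold for g8354.t1 and 1.23-fold for g12979.t1.

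The partner USP/RXR was near the limit of the test. Its transcript g11953.t1 had 10.3, 11 and 13.4 TPM at Juvenile 2d and 26.7, 17.4 and 17.1 TPM at Juvenile 3d (log2 fold change 0.56, SE 0.18, edgeR adjusted p = 0.0314). The call was lost without Juvenile 2d replicate 1, Juvenile 2d replicate 2 or Juvenile 3d replicate 1 (edgeR adjusted p 0.107, 0.0986 and 0.0701), in the 18-library fit (0.212) and with the length trend removed (0.056). The isoform g11953.t2 was not called, at 8.31, 5.58 and 1.79 TPM and then 8.71, 13.1 and 4.58 TPM. The counts of both isoforms were fractional in all 6 libraries because kallisto divides reads that fit both, so their separate levels are uncertain.

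Among E74, E75 and E78, which respond to ecdysone in Drosophila, E74 and E78 were called higher from the 6 libraries. E78 (g11712.t1), a nuclear receptor whose transcript the study also lists under the name E75, had 15.3, 11.5 and 11.9 TPM at Juvenile 2d and 58.1, 99.0 and 41.4 TPM at Juvenile 3d (log2 fold change 2.11, SE 0.29, edgeR adjusted p = 0.000634, and 0.096 in the 18-library fit). The ETS-domain factor E74 (g10224.t1) had 4.37, 3.74 and 3.14 TPM and then 22.1, 10.6 and 7.55 TPM (1.6, SE 0.39, edgeR adjusted p = 0.00969, and 0.0526 in the 18-library fit). Neither overlapped between the days. The nuclear receptor E75 (g7221.t1) had 6.67, 6.21 and 8.48 TPM and then 12.8, 12.8 and 7.65 TPM, and was not called (0.38, SE 0.20, edgeR adjusted p = 0.156). Its lowest Juvenile 3d library, replicate 3, lay within the range of Juvenile 2d, and without that library E75 was called higher (0.57, edgeR adjusted p = 0.0191).

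The largest difference in the pathway was that of HR3 (g6536.t1), a nuclear receptor that follows the hormone pulse and activates bFtz-F1 in Drosophila. It had 1.56, 1.21 and 1.51 TPM at Juvenile 2d and 69.4, 188 and 27.4 TPM at Juvenile 3d (log2 fold change 5.79, SE 0.78, edgeR adjusted p = 0.000536). HR3 thereby moved from rank 9068 to rank 1443 of all transcripts by mean TPM, although its Juvenile 3d replicates differed 6.87-fold. HR4 (g2273.t1), a further nuclear receptor of this step, had 0.476, 0.114 and 0.710 TPM and then 7.53, 6.45 and 2.34 TPM (3.37, SE 0.58, edgeR adjusted p = 0.00182). bFtz-F1 (g4792.t1), the factor that marks the fall of the hormone in Drosophila, had 1.33, 0.441 and 0.492 TPM and then 3.80, 8.92 and 3.66 TPM (2.67, SE 0.51, edgeR adjusted p = 0.00316, and 0.0559 in the 18-library fit). All 3 were low at Juvenile 2d, and none overlapped between the days. The Juvenile 2d values rest on 6, 2 and 13 counts for HR4 and 13, 6 and 7 for bFtz-F1, so the size of these folds is uncertain.

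Most of these transcripts had the same lowest library at Juvenile 3d, while the highest varied. Replicate 3 was lowest for 11 of the 12 molting transcripts, replicate 1 was highest for 6 and replicate 2 for 5. Without replicate 3, 10 of the 12 were called higher. What set replicate 3 apart was not tested, and how often it was lowest over all transcripts is not given here.

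**Figure D2:**
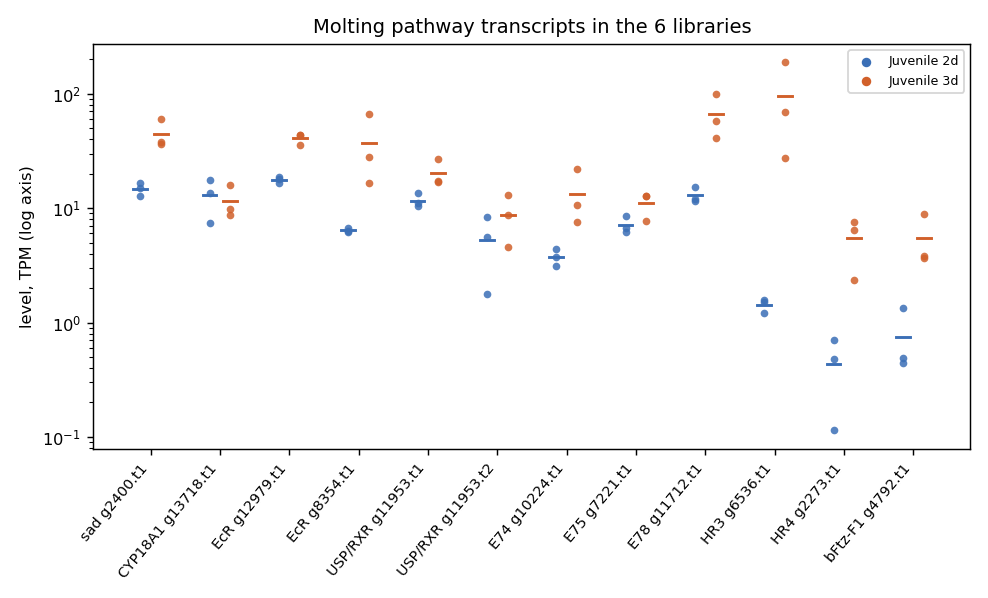
Levels of the 12 molting pathway transcripts in TPM (vertical log axis) in the 3 libraries of Juvenile 2d (blue) and of Juvenile 3d (orange), with a bar at the mean of each day. HR3 went from between 1.21 and 1.56 TPM to between 27.4 and 188 TPM, while CYP18A1, E75 and USP/RXR g11953.t2 overlapped between the days.

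Levels on the later days place the Juvenile 3d values. The mean of HR3 was 94.9 ± 83.3 TPM (SD, n = 3) at Juvenile 3d, 583 ± 125 TPM at Juvenile 4d and 68.7 ± 54.1 TPM at Juvenile 5d. EcR g8354.t1 had means of 37.0, 260 and 84.0 TPM on the same 3 days, and bFtz-F1 had 5.46, 53.0 and 3.14 TPM. These transcripts were thus lower at Juvenile 3d than at Juvenile 4d on average. The E78 mean was nearly equal on both days, at 66.2 TPM and 67.6 TPM, and those of sad (44.7 and 41.8 TPM) and EcR g12979.t1 (41.1 and 37.5 TPM) were likewise close. CYP18A1, not called at Juvenile 3d, had a mean of 11.5 TPM there, 76.1 TPM at Juvenile 4d and 290 TPM at Juvenile 7d. The steps after Juvenile 3d were not tested here.

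Argonaute proteins bind small RNAs and silence the transcripts or transposons that these match. Of the 7 argonaute and Piwi-like transcripts, 4 had enough counts to be tested, and 3 of these were called higher (75%, against 25.2% of all transcripts tested). The median log2 fold change of the 4 was 0.74. Their median coding length was 2917.5 bases, and of the 1895 longest transcripts 40.4% were called higher. Protein argonaute-2 g4269.t1 had 3.75, 2.92 and 2.89 TPM at Juvenile 2d and 10.5, 8.93 and 8.22 TPM at Juvenile 3d (log2 fold change 1.3, SE 0.14, edgeR adjusted p = 0.000196). Protein argonaute-1 g11139.t1, the most abundant of the list, had 16, 11.2 and 12.7 TPM and then 32.1, 25.4 and 24.5 TPM (0.80, SE 0.15, edgeR adjusted p = 0.0023, and 0.0635 in the 18-library fit). A second argonaute-1, g3665.t1, had 3.88, 2.97 and 3.56 TPM and then 6.42, 7.29 and 5.84 TPM (0.67, SE 0.14, edgeR adjusted p = 0.00453). In these 3 the lowest Juvenile 3d library was above the highest of Juvenile 2d. They are long transcripts, of 2721, 3078 and 2757 coding bases, and remained called higher with the length trend removed, at smaller log2 fold changes of 1.05, 0.50 and 0.41. The Piwi-like Ago3 (g10304.t1), of the family that guards the germline in Drosophila, stayed under 0.7 TPM in all 6 libraries and was not called (0.58, SE 0.59, edgeR adjusted p = 0.451). The argonaute-2 transcripts g35.t1 and g4855.t1 and argonaute-4 g5071.t1 also stayed under 0.7 TPM and were not tested.

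The HOX list holds homeobox genes that pattern the body axis in the embryo. None of its 8 members was called by edgeR or DESeq2, whereas edgeR called 25.2% higher and 23.6% lower of all transcripts tested. Of the 8, 0 had an unadjusted edgeR p under 0.05, against 5275 of the 9477 tested. Their log2 fold changes ran from −0.23 for caudal (g10624.t1, SE 0.24) to 0.33 for Hox4_disformed (g2153.t1, SE 0.17). Hox1_labial (g6100.t1) was at 0.31, Hox3_zen (g6131.t1) at 0.29 and Hox10_abdb-1 (g6414.t1) at 0.24. Hox7_ftz (g6724.t1, −0.04), Hox9_abdb-2 (g6415.t1, −0.06) and engrailed (g10006.t1, −0.06) were near 0 and took the other sign under some settings. Their levels were low to moderate, with means from 3.04 TPM for Hox3_zen to 20.2 TPM for Hox10_abdb-1 at Juvenile 2d. On log2(TPM + 1), limma called 2 of the 8 higher, against 3332 of 10088 transcripts. With the length trend removed edgeR called 1 higher, Hox10_abdb-1 (0.40, edgeR adjusted p = 0.0482), against 2297 of 9477 transcripts. The SE of the 8 were up to 0.25, so small changes were not resolved.

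CAHS and SAHS transcripts were among the most abundant of the animal, and the families moved in different directions in sum. All 15 CAHS transcripts together had 39973, 39928 and 40342 TPM at Juvenile 2d and 25983, 27284 and 31201 TPM at Juvenile 3d. Their share of the estimated counts was 3.73% ± 0.03 and then 2.36% ± 0.24 (SD, n = 3). All 13 SAHS transcripts together had 29808, 30392 and 30775 TPM and then 49113, 44560 and 43164 TPM, and their share of the counts was 1.18% ± 0.03 and then 1.59% ± 0.10 (SD, n = 3). CAHS was thus the larger family by summed TPM in each Juvenile 2d library and SAHS in each Juvenile 3d library. By share of the counts CAHS was the larger in every library of both days, so the order at Juvenile 3d depended on the scale. No test was run on the sums, which rest on a few members.

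Of the 15 CAHS transcripts, 12 were tested, 7 were called lower (58.3%) and 2 higher (16.7%), against 25.2% higher and 23.6% lower of all transcripts tested, with a median log2 fold change of −0.60. The most abundant, g3884.t1, had 12808, 12210 and 12351 TPM at Juvenile 2d and 7232, 5865 and 8239 TPM at Juvenile 3d (log2 fold change −1.03, SE 0.15, edgeR adjusted p = 0.000753, and 0.0789 in the 18-library fit). It went from rank 4 to rank 10 of all transcripts. The next in level, g5971.t1, had 8542, 8977 and 8910 TPM and then 5930, 6626 and 7739 TPM (−0.61, SE 0.13, edgeR adjusted p = 0.00566, and 0.561 in the 18-library fit). The third, g675.t1, had 6234, 5823 and 6166 TPM and then 3511, 3636 and 4297 TPM (−0.90, SE 0.12, edgeR adjusted p = 0.000488, and 0.642 in the 18-library fit). Every Juvenile 3d library of these 3 was below every Juvenile 2d library. Of the 7 calls, the 18-library fit kept that of g673.t1, at 2009, 2024 and 1900 TPM and then 899, 955 and 1103 TPM (−1.27, SE 0.12, edgeR adjusted p = 8.91e-05). All 7 were kept when any of the 6 libraries was left out and with the length trend removed. Over all transcripts tested, leaving out each library in turn kept 1674 of the 2241 lower calls.

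Neighbouring numbers in the CAHS list could move in opposite directions. Between g673.t1 and g675.t1, which were called lower, g674.t1 was called higher, at 440, 400 and 426 TPM and then 724, 663 and 668 TPM (log2 fold change 0.46, SE 0.09, edgeR adjusted p = 0.0027). Likewise g4307.t1 was called lower, at 375, 398 and 408 TPM and then 237, 184 and 252 TPM (−1.05, SE 0.14, edgeR adjusted p = 0.000508, and 0.178 in the 18-library fit). Its neighbour g4308.t1 was called higher, at 41.0, 40.5 and 38.4 TPM and then 115, 89.7 and 99.4 TPM (1.09, SE 0.11, edgeR adjusted p = 0.00016, and 0.0569 in the 18-library fit). The members called higher were thus of moderate level and those called lower included the 4 most abundant at Juvenile 2d. g12902.t1 was also lower, at 184, 166 and 172 TPM and then 155, 106 and 149 TPM (−0.59, SE 0.15, edgeR adjusted p = 0.0126, and 0.0852 in the 18-library fit). The estimated counts of all 15 were whole in every library, so reads were not divided between them.

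Of the 13 SAHS transcripts, 10 were tested, 2 were called higher (20%) and 4 lower (40%), against 25.2% higher and 23.6% lower of all transcripts tested, with a median log2 fold change of −0.07. The difference in the summed TPM was largely that of g1676.t1, which had 3149, 3133 and 3352 TPM at Juvenile 2d and 14822, 13708 and 12332 TPM at Juvenile 3d (log2 fold change 1.85, SE 0.10, edgeR adjusted p = 7.95e-06). It went from rank 51 to rank 5 of all transcripts. Its neighbour g1677.t1 was also called higher, at 11.6, 20.7 and 14.6 TPM and then 65.8, 56.7 and 52.8 TPM (1.63, SE 0.29, edgeR adjusted p = 0.0022). On the other side, g1675.t1 was called lower, at 2633, 2363 and 2415 TPM and then 1730, 1694 and 1817 TPM (−0.73, SE 0.09, edgeR adjusted p = 0.000402, and 0.0841 in the 18-library fit).

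The largest fall in the list was that of g1122.t1, with 696, 650 and 666 TPM and then 241, 217 and 221 TPM (−1.80, SE 0.09, edgeR adjusted p = 5.79e-06). Also lower were g5852.t1, at 115, 126 and 121 TPM and then 63.0, 61.6 and 76.1 TPM (−1.08, SE 0.16, edgeR adjusted p = 0.000755, and 0.0703 in the 18-library fit), and g1624.t1, at 660, 630 and 649 TPM and then 611, 550 and 581 TPM (−0.39, SE 0.09, edgeR adjusted p = 0.00655, and 0.181 in the 18-library fit). For the most abundant member, g1671.t1, the scale decided the reading. It had 15439, 15664 and 15899 TPM and then 20182, 19169 and 18219 TPM, without overlap, but its log2 fold change was 0.06 (SE 0.09, edgeR adjusted p = 0.633). g1669.t1 had 6517, 7071 and 7009 TPM and then 10633, 8339 and 9106 TPM, and was not called either (0.21, SE 0.11, edgeR adjusted p = 0.155). With the length trend removed, 5 SAHS transcripts were called higher and 3 lower. Their median coding length was 516 bases, against 1323 over all transcripts tested. Of the 1900 shortest transcripts, 17.5% were called higher and 32.7% lower.

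**Figure D3:**
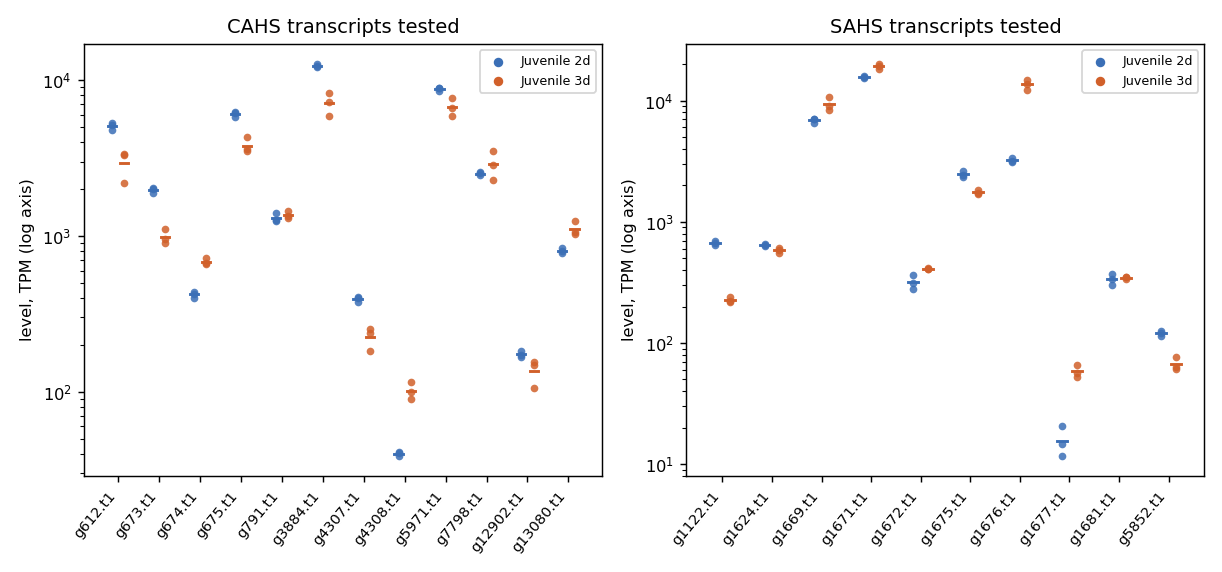
Levels in TPM (vertical log axis) of the 12 CAHS (left) and 10 SAHS transcripts (right) tested, in the 3 libraries of Juvenile 2d (blue) and Juvenile 3d (orange), with a bar at the mean of each day. In CAHS the most abundant transcripts, such as g3884.t1, were lower at Juvenile 3d. In SAHS g1676.t1 rose to between 12332 and 14822 TPM.

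Of the remaining protectants, Dsup was called higher, LEAM lower and MAHS was not called. Dsup (g4591.t1), a protein that binds nucleosomes and shields DNA, had 50.02, 49.2 and 59.1 TPM at Juvenile 2d and 110, 120 and 96.3 TPM at Juvenile 3d (log2 fold change 0.80, SE 0.11, edgeR adjusted p = 0.000609). LEAM (g2978.t1) had 504, 576 and 553 TPM and then 420, 433 and 441 TPM (−0.58, SE 0.10, edgeR adjusted p = 0.00183, and 0.103 in the 18-library fit). Neither overlapped between the days. MAHS (g6834.t1) had 112, 107 and 117 TPM and then 166, 108 and 132 TPM, which overlapped (0.03, SE 0.14, edgeR adjusted p = 0.878).

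Glutathione S-transferases (GST), which couple glutathione to reactive compounds, were lower at Juvenile 3d. Of 21 transcripts, 20 were tested, 14 were called lower (70%, against 23.6% of all transcripts tested), 0 higher (also 0 at an unadjusted edgeR p under 0.05, and 0 by DESeq2) and 6 were not called, and the median log2 fold change was −0.70. The median coding length of the 20 was 642 bases, and of the 1900 shortest transcripts 32.7% were called lower. The summed level of the 21 was 9946, 10836 and 10626 TPM at Juvenile 2d and 6232, 6551 and 7229 TPM at Juvenile 3d. The sums did not overlap, and the sum at Juvenile 3d was lowest in replicate 1. Leaving out each library in turn kept 12 of the 14 calls throughout, against 1674 of the 2241 lower calls over all transcripts tested. The 18-library fit kept 8 of the 14, against 1210 of the 2241, and 13 were called lower with the length trend removed. In that fit 1 was called higher, g7678.t1 (0.43, edgeR adjusted p = 0.0433, against 0.27 and 0.177 without the correction), as it was with replicate 1 of Juvenile 3d left out (0.40, edgeR adjusted p = 0.0403), and limma on log2(TPM + 1) called 1 higher. g7678.t1 is named here after its values were seen.

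The most abundant GST, g4017.t1, had 3613, 3954 and 4028 TPM at Juvenile 2d and 2064, 1911 and 2280 TPM at Juvenile 3d (log2 fold change −1.12, SE 0.12, edgeR adjusted p = 0.000149). Next came g2973.t1, with 1778, 1923 and 1823 TPM and then 1175, 1438 and 1400 TPM (−0.69, SE 0.12, edgeR adjusted p = 0.00158, and 0.229 in the 18-library fit), and g10977.t1, with 1212, 1364 and 1326 TPM and then 921, 938 and 1026 TPM (−0.67, SE 0.11, edgeR adjusted p = 0.00125, and 0.0887 in the 18-library fit). These 3 accounted for most of the family's summed TPM, and none overlapped between the days. Among the largest falls, g6233.t1 had 317, 298 and 279 TPM and then 77.9, 82.5 and 121 TPM (−1.89, SE 0.19, edgeR adjusted p = 0.000119). g11192.t1 had 364, 416 and 361 TPM and then 118, 103 and 186 TPM (−1.71, SE 0.23, edgeR adjusted p = 0.000494). The lowest fold change, −2.35 of g4016.t2 (SE 0.69, edgeR adjusted p = 0.0216, and 0.116 in the 18-library fit), rests on an isoform whose reads were divided with g4016.t1 and was lost without any of 4 of the 6 libraries (Juvenile 2d replicates 1, 2 and 3 and Juvenile 3d replicate 1, with edgeR adjusted p of 0.0537, 0.0941, 0.0607 and 0.0695). The smallest called falls were those of g9608.t1 (−0.56, SE 0.11, edgeR adjusted p = 0.00284, and 0.319 in the 18-library fit) and g4663.t1 (−0.30, SE 0.10, edgeR adjusted p = 0.0404, and 0.819 in the 18-library fit). The call of g4663.t1 was lost without any of 5 of the 6 libraries (edgeR adjusted p between 0.059 and 0.133), with Juvenile 3d replicate 3 as the exception.

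Superoxide dismutases (SOD), which turn superoxide into hydrogen peroxide, were mostly lower where called. Of 17 transcripts, 15 were tested, 8 were called lower (53.3%) and 2 higher (13.3%), against 25.2% higher and 23.6% lower of all transcripts tested, with a median log2 fold change of −0.55. The median coding length of the 15 was 600 bases, and of the 1900 shortest transcripts 17.5% were called higher and 32.7% lower. Leaving out each library in turn kept all 8 lower calls throughout, against 1674 of the 2241 over all transcripts tested. With the length trend removed, 8 were called lower and 2 higher. In the 18-library fit edgeR called 0 SOD transcripts lower, against 11.8% of all transcripts tested there. Of the lower SOD transcripts, 4 had an unadjusted edgeR p under 0.05 there, against 1967 of all 10436. That fit called 1 SOD transcript higher, against 14% of all. That call was g8490.t1, with 420, 522 and 497 TPM at Juvenile 2d and 1665, 1804 and 1722 TPM at Juvenile 3d (1.61, SE 0.12, edgeR adjusted p = 3.26e-05). It went from rank 341 to rank 89 of all transcripts and became the most abundant SOD transcript. g11594.t1 was also called higher, at 969, 1090 and 1004 TPM and then 1507, 1609 and 1542 TPM (0.37, SE 0.10, edgeR adjusted p = 0.0137, and 0.5 in the 18-library fit), a call that ended when replicate 1 or 3 of Juvenile 2d was left out (edgeR adjusted p 0.059 and 0.0731).

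The 3 SOD transcripts most abundant over the 6 libraries carry successive numbers and were all called lower. g456.t1 had 2229, 2710 and 2354 TPM and then 1354, 1341 and 1697 TPM (log2 fold change −0.98, SE 0.15, edgeR adjusted p = 0.00109, and 0.093 in the 18-library fit). g455.t1 had 1666, 1853 and 1696 TPM and then 1097, 1064 and 1479 TPM (−0.74, SE 0.16, edgeR adjusted p = 0.00547, and 0.219 in the 18-library fit). g457.t1 had 1446, 1591 and 1478 TPM and then 1189, 1115 and 1318 TPM (−0.55, SE 0.11, edgeR adjusted p = 0.00419, and 0.153 in the 18-library fit). In each the days did not overlap. The largest falls were those of g10526.t1 (−1.26, SE 0.16, edgeR adjusted p = 0.000356, and 0.061 in the 18-library fit) and g6658.t1 (−1.10, SE 0.18, edgeR adjusted p = 0.00127, and 0.161 in the 18-library fit). With falls in these and the rise of g8490.t1, the summed level of the list was 8279 ± 624 TPM and then 7919 ± 586 TPM (SD, n = 3), which overlapped. As a share of the estimated counts it was 0.639% ± 0.055 and then 0.490% ± 0.049 (SD, n = 3), without overlap, so the reading of the sum depends on the scale.

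Catalases break hydrogen peroxide down to water and oxygen, and the 3 transcripts of the list each behaved differently. Catalase g5941.t1 was nearly absent at Juvenile 2d, with 0.0824, 0.177 and 0.227 TPM, and present at Juvenile 3d with 12.5, 12.7 and 8.87 TPM (log2 fold change 5.74, SE 0.28, edgeR adjusted p = 5.79e-06). The Juvenile 2d values rest on 1, 3 and 4 counts, near the limit of 3 counts that a count of 0 allows, so the size of the fold is uncertain while the days did not overlap. Catalase g4317.t1, the most abundant, had 117, 109 and 110 TPM and then 111, 95.7 and 112 TPM. These levels overlapped, but its log2 fold change of −0.32 was called lower (SE 0.10, edgeR adjusted p = 0.0331, and 0.385 in the 18-library fit). That call was lost without any of 5 of the 6 libraries (edgeR adjusted p between 0.0512 and 0.09), with Juvenile 3d replicate 3 as the exception. Catalase g3478.t1 had 27.2, 26.5 and 29.0 TPM and then 37.6, 39.4 and 34.5 TPM and was not called (0.18, SE 0.09, edgeR adjusted p = 0.113).

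Thioredoxins, which reduce disulfide bonds of other proteins, gave few stable calls. Of the 14 tested, 7 were called lower (50%) and 2 higher (14.3%), against 25.2% higher and 23.6% lower of all transcripts tested, with a median log2 fold change of −0.27, but leaving out each library in turn kept 2 of the lower and 1 of the higher calls throughout. Over all transcripts tested, this kept 1674 of the 2241 lower and 1726 of the 2389 higher calls. On log2(TPM + 1), limma called 1 lower and 2 higher, and the median of the thioredoxins there was −0.03. The calls that leaving out a library did not end were g7405.t1 (−0.79, SE 0.16, edgeR adjusted p = 0.00382, and 0.0703 in the 18-library fit), g5974.t1 (−0.50, SE 0.10, edgeR adjusted p = 0.00329) and g13167.t1 (0.96, SE 0.17, edgeR adjusted p = 0.00208). g13167.t1 was of low level, at 2.79, 3.08 and 2.41 TPM and then 6.14, 7.39 and 5.60 TPM. The most abundant, g11519.t1, had 1312, 1468 and 1462 TPM and then 1312, 1489 and 1447 TPM, with a log2 fold change of −0.23 (SE 0.11, edgeR adjusted p = 0.0972). g11522.t1 was at 0.01 (SE 0.11, edgeR adjusted p = 0.92). The other calls named here did not hold in every fit with 1 library left out. That of g11396.t1 (0.55, SE 0.17, edgeR adjusted p = 0.0252, and 0.17 in the 18-library fit) was lost without replicate 2 or 3 of Juvenile 2d or replicate 1 or 3 of Juvenile 3d (edgeR adjusted p between 0.0625 and 0.0822), that of g4356.t1 (−0.47, SE 0.12, edgeR adjusted p = 0.0111, and 0.0697 in the 18-library fit) without Juvenile 2d replicate 3 (0.0505), and that of g5429.t1 (−0.31, SE 0.11, edgeR adjusted p = 0.0429, and 0.381 in the 18-library fit) without any library but Juvenile 3d replicate 2 (between 0.0589 and 0.116).

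**Figure D4:**
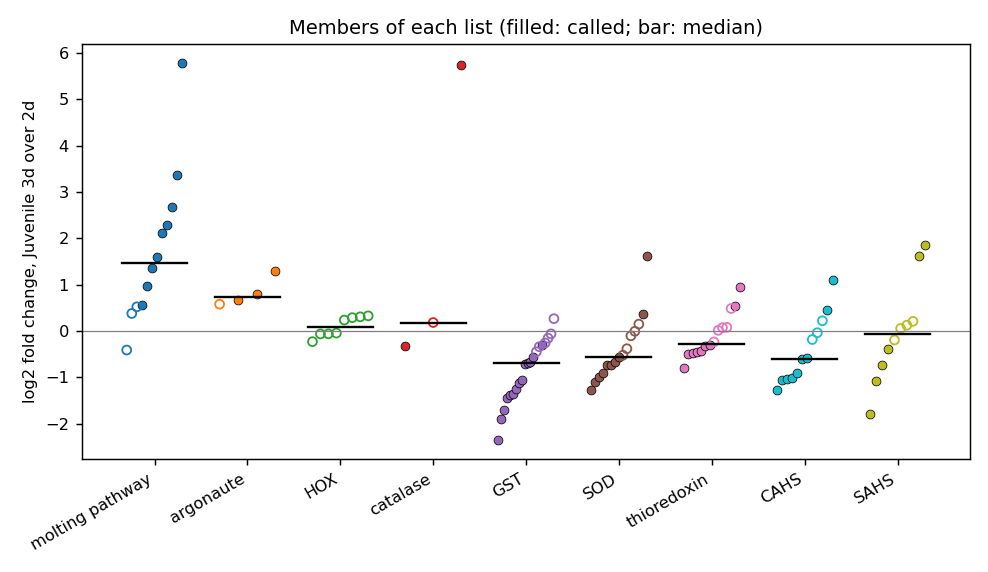
Log2 fold change of Juvenile 3d over 2d for each tested member of 9 lists, as a point (filled where the edgeR adjusted p was up to 0.05, open otherwise), with a bar at the median of the list. The medians ran from −0.70 for GST to 1.48 for the molting pathway, and the highest members of catalase, SOD and SAHS were at 5.74, 1.61 and 1.85.

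A set of transcripts had counts at Juvenile 3d and none at Juvenile 2d. With 0 counts in all 3 libraries of Juvenile 2d and at least 3 in each of Juvenile 3d there were 29 transcripts, 16 of them with at least 10 counts in each, whereas 0 transcripts met the reverse rule. Depth was not equal, with totals of 2740260, 3758969 and 3945292 at Juvenile 2d and 4144230, 3661738 and 4673295 at Juvenile 3d. The part of depth in this difference was not tested. A count of 0 still allows up to 3 counts in a library, which is 1.095 CPM (a count as a share of its library) for the shallowest of the 6, and this limit covers counting error only, because without molecular identifiers PCR copies were counted as separate reads. None of the 29 was in the lists above. Transcripts with 0 counts in all 3 libraries numbered 2448 at Juvenile 2d and 2089 at Juvenile 3d, so the 2 rules did not start from equal sets. The 29 were chosen by these counts, so their difference between the days is a description. Their mean levels at Juvenile 3d had a median of 12.3 TPM and reached 744 TPM in 1 transcript, which weighs heavily in the sums. Their summed level was 2517, 2616 and 725 TPM in replicates 1, 2 and 3 of Juvenile 3d. Replicate 3 was again the lowest. In the libraries of Juvenile 4d the sum lay between 7110 and 11325 TPM, and on each later day it was between 635 and 4226 TPM, so that the set as a whole was found on all days after Juvenile 2d.

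Some transcripts without a name in the sources used here had larger fold changes than any member of the lists. Among those called from the 6 and from the 18 libraries and without any of the 6, and of whole counts, g13243.t1 had 0 counts in all Juvenile 2d libraries and 51.1, 108 and 43.8 TPM at Juvenile 3d. Against the limit of 3 counts over the 3 libraries of Juvenile 2d it was at least 431-fold higher. g7407.t1, also at 0 in Juvenile 2d, had 12.2, 19.4 and 9.81 TPM and was at least 262-fold higher on the same reckoning. In the other direction, g1210.t1 had 16.1, 11.2 and 10.5 TPM and then 0.133, 0.296 and 0.467 TPM, from 1, 2 and 4 counts (log2 fold change −5.51, SE 0.37, edgeR adjusted p = 2.31e-05). g3881.t1 had 518, 461 and 282 TPM and then 22.4, 10.6 and 3.93 TPM (−5.35, SE 0.47, edgeR adjusted p = 7.03e-05). Both returned later, with means of 88.5 and 4702 TPM at Juvenile 5d.

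Set against the later days, Juvenile 3d lay between Juvenile 2d and Juvenile 4d for several lists. The mean summed level of CAHS was 40081 TPM at Juvenile 2d, 28156 TPM at Juvenile 3d and 11602 TPM at Juvenile 4d, and that of GST was 10469, 6670 and 3527 TPM. The molting pathway had 95.0, 360 and 1376 TPM. SAHS instead had its highest mean at Juvenile 3d, at 45612 TPM against 30325 TPM at Juvenile 2d and 39173 TPM at Juvenile 4d. At Juvenile 7d the 3 libraries lay between 18570 and 47119 TPM for SAHS. These courses are a description, and the later steps were not tested here.

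**Figure D5:**
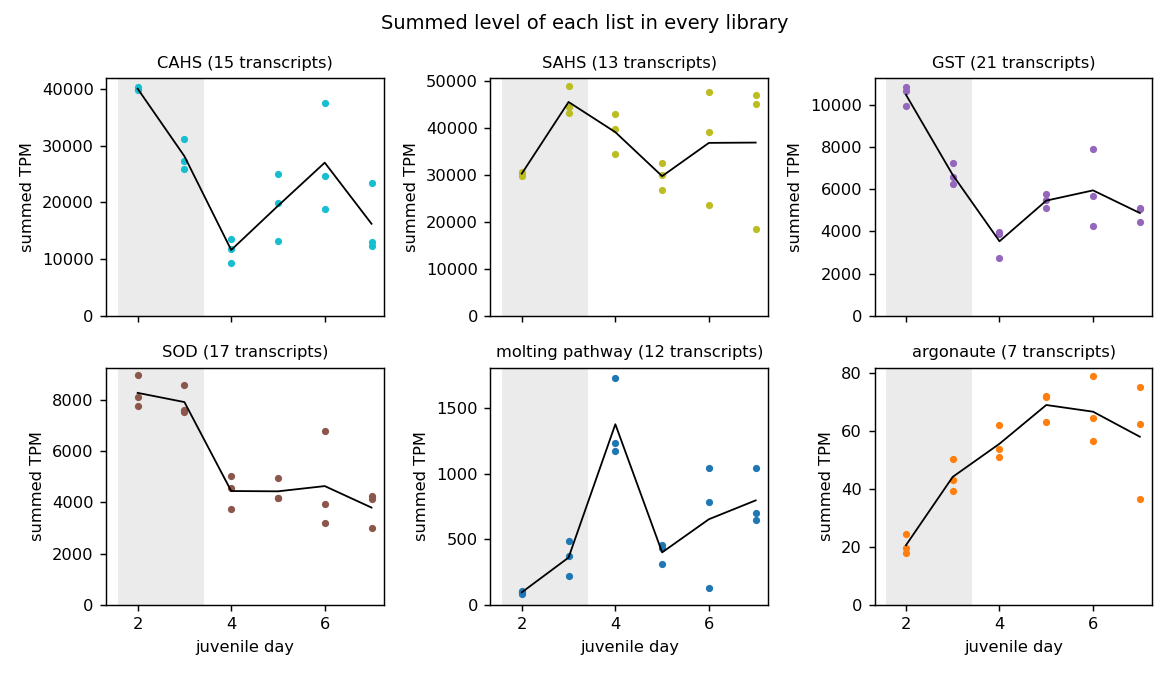
Summed level in TPM (vertical axis, from 0) of 6 lists in each of the 18 libraries (points) by juvenile day (horizontal axis), with a line through the daily means and Juvenile 2d and 3d shaded. In every library of Juvenile 3d, CAHS and GST were below the libraries of Juvenile 2d, and SAHS, the molting pathway and argonaute transcripts were above them. SOD overlapped between the days.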

How the data were processed

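The authors ran kallisto on single-end reads against 14532 predicted coding sequences of R. varieornatus, with its sequence bias correction and a fragment length they set. The methods name kallisto 0.42.4, and the submitters' processing notes list 0.42.4 and 0.44.0. The authors deposited, for each library, estimated counts that are not normalized, and TPM values computed from these counts and the effective lengths. Of the counts of the 6 libraries, 92.2% to 93.5% are whole. A fractional count shows reads divided between similar sequences. Of the lengths, 99.58% are multiples of 3, so they are coding lengths. The number of animals in a library is not given in the sources used here. The labels list Juvenile 2d to 7d, while the methods text gives a later first day for the collection, and the labelled days were used.

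Rounded estimated counts entered edgeR 4.0.16, run in R 4.3.3 (filterByExpr at its minimum count of 10, TMM, quasi-likelihood F test, Benjamini-Hochberg adjustment over all transcripts tested, adjusted p of up to 0.05), with day as the single term. The 6 libraries alone were fitted because the replicates of some later days were further apart, which is a choice made with that spread known. As standard error, the size of the log2 fold change over the square root of F was taken. DESeq2 1.42.0, limma 3.58.1 on log2(TPM + 1) and log2(TPM + 0.1), other scalings and filters, fits of 18 and of 12 libraries, the replicate number as a block and fits without each library were alternatives. Medians of log2(TPM + 1) set equal and the removal of the length trend were added after the data were seen. The edgeR script was tested on simulated data. Levels and correlations were computed in Python 3.11.15 with pandas 2.3.3.

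The lists and names are those that the study pairs with its transcript identifiers. The lists, their members and the tests were chosen with earlier results of these data known. Named one by one were all molting, catalase, argonaute, HOX, Dsup, LEAM and MAHS transcripts, and in each of GST, SOD, thioredoxin, CAHS and SAHS the 3 of highest mean TPM and, of those called, the 3 highest and 3 lowest by fold change. Of transcripts without a name, the 2 highest and the 2 lowest were named among those of at least 10 TPM on the higher day, with whole counts and with calls in the fits of 6 and 18 libraries and without each library. The CAHS transcript g612.t1 appears in a plot and in a count. The reference table held no match for the identifiers, so no genome positions or sequences are given.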

Additional observations from a re-analysis of the deposited data

How the results depend on the processing

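Without each library in turn, the transcripts called higher numbered 1955 to 2281 and those called lower 1818 to 2110, against 2389 and 2241 from all 6, and the molting transcripts called higher 8 to 10. With all 18 libraries in the fit, these counts were 1464, 1230 and 5. limma on log2(TPM + 1) and log2(TPM + 0.1) called 1403 and 1398 lower. The other settings kept the count of each direction within 1.5 times, with DESeq2 at 1953 higher and 1836 lower. The median correlation within and between days was 0.9384 and 0.8316 on log2(TPM + 0.1), and 0.9825 and 0.9314 over all transcripts.

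No pairing of the libraries by replicate number was seen: deviations of libraries with the same number correlated at 0.0357, 0.0316 and −0.0217, all under the limit of 0.1. Whether libraries of the same number shared a culture or preparation was not tested. With the replicate number as a block, 2274 were called higher and 2080 lower, and 8 molting transcripts higher. Not every library correlated best with its own number.

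Of the named transcripts, 31 lost their call in the 18-library fit and 40 did not change. The sign turned only for 7 transcripts that were not called. engrailed was at 0.18 and 0.19 on log2(TPM + 1) and log2(TPM + 0.1), 0.12 with the length trend removed and −0.18 to 0.13 without each library (above 0 without Juvenile 2d replicate 3). Hox7_ftz was at 0.18, 0.20 and 0.092 under the same 3 settings, and at −0.22 to 0.11 without each library (at 0.11 when Juvenile 2d replicate 1 was left out, and 0.0038 and 0.031 when Juvenile 3d replicates 1 and 3 were). Hox9_abdb-2 was at 0.17, 0.18 and 0.11, and at −0.15 to 0.019 without each library (above 0 without Juvenile 2d replicate 2). Thioredoxin g11519.t1 was at 0.0019 on both TPM scales. MAHS was at −0.017 with 18 libraries, −0.0088 with those of days 2 to 5, −0.098 with medians set equal and −0.11 to 0.17 without each library (below 0 without Juvenile 3d replicate 1). Thioredoxin g11522.t1 was at −0.031, −0.024 and −0.10 under the same 3 settings, −0.012 with upper quartile scaling, and −0.070 to 0.10 without each library (−0.0047 and −0.070 without Juvenile 2d replicate 1 and Juvenile 3d replicate 2). SAHS g1671.t1 was at −0.052 with medians set equal. The cause was not tested.

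The limits are 3 libraries a day, an unknown number of animals in each, coding sequences without untranslated regions, and totals that differed 1.71-fold. Fold changes of transcripts near the limit of 3 counts on a day, such as catalase g5941.t1, g1210.t1 and HR4, are of uncertain size.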
